A study of Homo sapiens with 6 samples.

Results

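The cholesterol and fatty acid synthesis genes described here are 30 human genes, chosen by name from the sterol and lipogenic pathways. They were given as 32 symbols, since MSMO1 and SC5D each also appear under an older name, and all 30 were found among the 26822 gene symbols of the RNA-seq table. They comprise 7 genes of the mevalonate steps, 11 genes of the steps from squalene formation to cholesterol, 4 genes that regulate the pathway or carry sterol, and 8 genes of fatty acid and glycerolipid synthesis.

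Both groups were MCF10A, an established, non-tumorigenic line of human breast epithelial cells. In the siNT group the cells received non-targeting siRNAs, and in the siPAX9 group they received siRNAs against the transcription factor PAX9. Both groups had 3 samples, 30 nM siRNA delivered with the same lipid reagent, and RNA harvested 72 h after transfection. Both were grown with 5% horse serum, 10 μg/mL insulin, 20 ng/mL epidermal growth factor, hydrocortisone and cholera toxin, so the cells had serum lipids and insulin throughout, and no group without serum lipids was compared.

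Cells make cholesterol from acetyl-CoA through mevalonate, farnesyl diphosphate, squalene and lanosterol, and make fatty acids from the same acetyl-CoA through malonyl-CoA. Many genes of both routes are activated by the SREBP transcription factors, which SREBF1 and SREBF2 encode; when membrane sterols are plentiful, INSIG proteins hold the SREBP precursors in the endoplasmic reticulum. In epithelia the products supply membranes for dividing cells and, in stratified epithelia, lipids of the surface barrier.

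The deposited values are FPKM, sequenced fragments adjusted for transcript length and library size, with 1 value for siNT and 1 for siPAX9 that combines the samples of the group. No value per sample was used, so every difference below lacks a replicate check, no test was made, and the table gives no read counts behind its values. Ratios are siPAX9 over siNT on the log2 scale, so a negative ratio means a lower level in siPAX9. In these bulk samples, fewer cells of a type and less RNA per cell cannot be told apart.

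PAX9, the target of the siRNAs, had 2.80 FPKM in siNT and 0.325 in siPAX9, a log2 ratio of -3.10 (-1.52 with 1 added to each FPKM). Its row spans chr14:37126773-37642998 on hg19 and overlaps SLC25A21 on the opposite strand, with 0.861 FPKM in siNT and 0.487 in siPAX9. The lower PAX9 level in siPAX9 matched the group's label, at a low FPKM in both groups.

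All 30 cholesterol and fatty acid synthesis genes had a mean FPKM of the 2 groups of at least 10, from 11.2 for HSD17B7 to 186 for SCD, and so passed the minimum of 1 that was set for naming a difference. Of them, 25 were lower and 5 were higher in siPAX9, and their median log2 ratio was -0.35 (-0.16 after rescaling to the same total, and -0.23 without the 9 genes that share a row or exons with another gene, a set chosen after seeing the data). Among all 13264 named genes with a mean FPKM of at least 1 the median was -0.07 and 55.3% were lower, and among the 7065 with a mean of at least 10 the median was -0.13 and 61.3% were lower. The deposited values therefore had a tilt toward lower values in siPAX9 among well expressed genes, and the members' median lay 0.28 below that of all named genes and 0.22 below that of genes with a mean of at least 10, or 0.16 and 0.10 without the 9 genes. Rescaling to the same total puts the median of all named genes at 0.12. It shifts members and background alike, so these gaps stay the same. The sum of the members' FPKM was 1696 in siNT and 1340 in siPAX9, a ratio of 0.790, beside a ratio of 0.833 for the sum over all named genes.

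Large differences were few. At least 2-fold lower in siPAX9 were 2 of the 30 genes (6.67%), FADS2 and ELOVL6, beside 6.90% of all named genes and 5.63% of those with a mean FPKM of at least 10, so this count is near the background and is not a result about the members. No member was at least 2-fold higher (0 of 30), beside 6.82% of all named genes and 3.91% of those with a mean FPKM of at least 10. At a threshold of 1.5-fold, 7 of the 30 (23.3%) were lower, namely FADS2, ELOVL6, ACAT2, FADS1, SCD, INSIG1 and SREBF1, beside 16.7% of all named genes and 17.1% of those with a mean FPKM of at least 10. Without the 9 genes that share a row or exons, 3 of 21 (14.3%) were 1.5-fold lower, so the larger count rests on those genes and is not a result about the members. After rescaling to the same total, INSIG1 and SREBF1 fell short and 5 of the 30 remained, beside 10.8% of all named genes. None of the 30 was at least 1.5-fold higher, beside 13.7% of all named genes and 8.83% of those with a mean FPKM of at least 10.

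**Figure D1:**
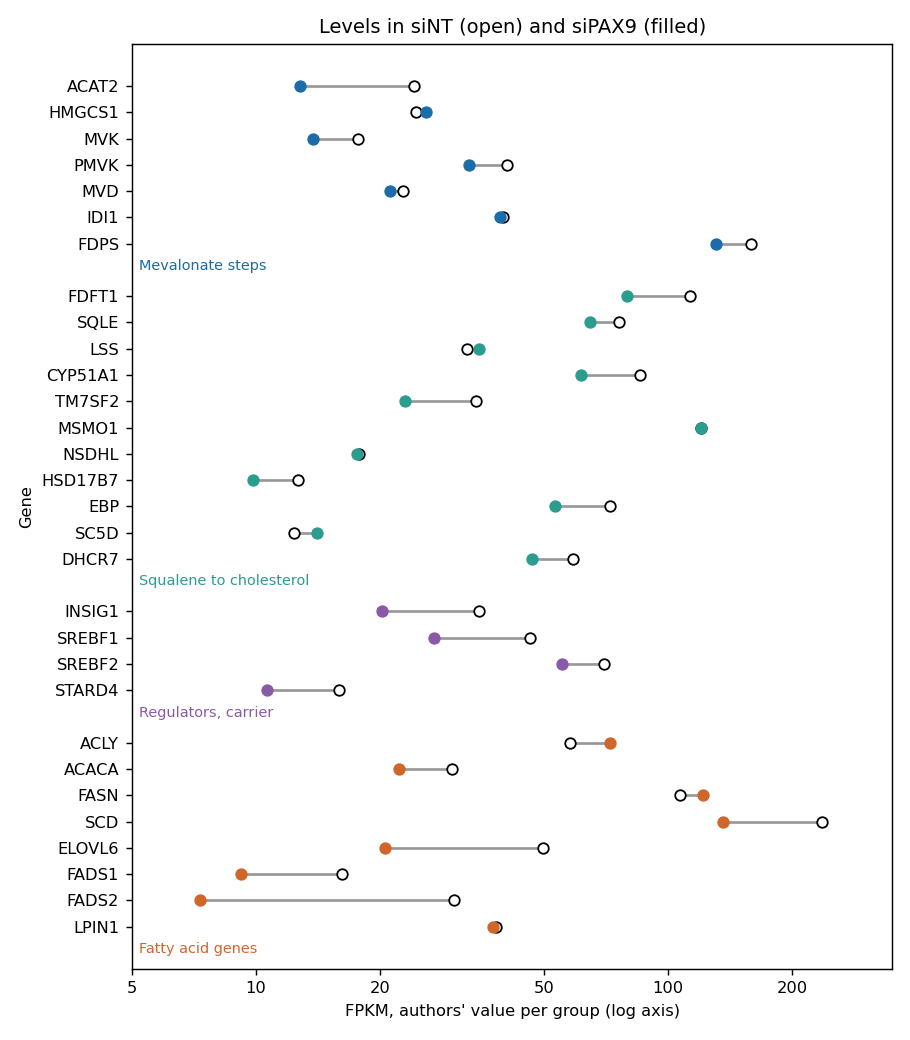
FPKM of each cholesterol and fatty acid synthesis gene in siNT (open circles) and siPAX9 (filled circles), 1 authors' value per group with no error, on a log axis and grouped by role. The widest gap is that of FADS2, from 30.2 in siNT to 7.30 in siPAX9, while MSMO1 had 120.2 and 119.9.

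**Figure D2:**
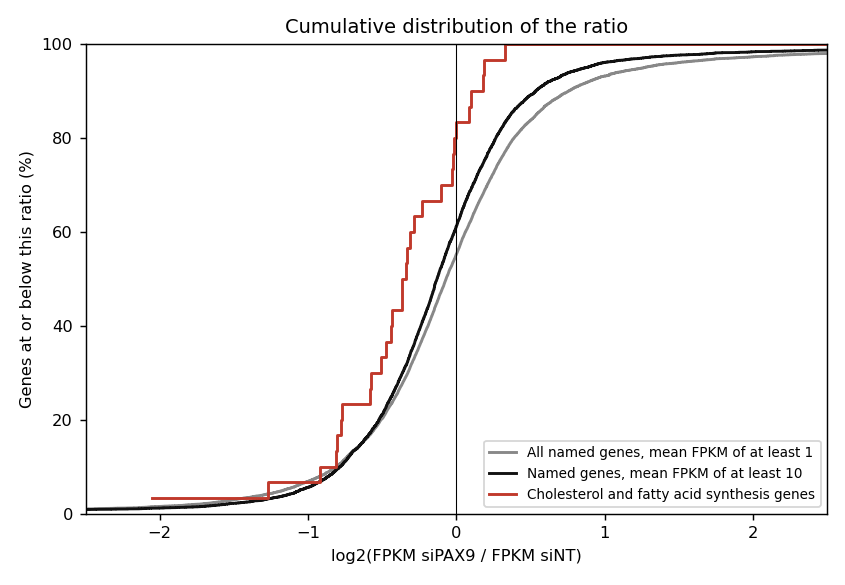
Share of genes at or below each log2 ratio of siPAX9 over siNT, for all named genes with a mean FPKM of at least 1 (grey), those with a mean of at least 10 (black) and the 30 cholesterol and fatty acid synthesis genes (red). The red line lies to the left of both others over most of its range and ends at 0.33, while the grey and black lines extend to higher ratios.

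The direction of 5 genes depended on how the groups are scaled to each other. MSMO1, NSDHL, IDI1 and LPIN1, whose log2 ratios were between -0.029 and -0.0040, lay above 0 after centring on the median of all named genes, after scaling to the upper quartile and after rescaling to the same total. MVD lay above 0 only after rescaling to the same total, which raises every log2 ratio by 0.19 and puts the median of all named genes at 0.12. The other 20 lower genes were below 0 as deposited and under each of these scalings. All 3 scalings raise every ratio, so the 5 higher genes could not flip and their direction was not tested by them. The split of 25 lower and 5 higher was thus 21 and 9 after centring and after upper quartile scaling, and 20 and 10 after rescaling to the same total.

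The mevalonate steps build farnesyl diphosphate from acetyl-CoA, and 6 of their 7 genes were lower in siPAX9, with IDI1 and MVD flipping as above. Of all named genes, 55.3% were lower, as were 61.3% of those with a mean FPKM of at least 10. The median log2 ratio of the 7 was -0.28, or -0.089 after rescaling to the same total. Without the 3 genes that share a row or exons it was -0.065. This is no lower than the -0.07 of all named genes or the -0.13 of those with a mean of at least 10. The summed FPKM of the 7 was 329 in siNT and 276 in siPAX9. ACAT2, a cytosolic thiolase that joins acetyl-CoA units, had the lowest ratio of the 7, with 24.2 in siNT and 12.8 in siPAX9 (-0.92). ACAT2 shares 454 of its 2639 exonic bases in the GENCODE annotation of GRCh37, the build with the coordinates of hg19, with TCP1 and 133 with SOD2, both on the opposite strand. Whether the library kept strand is not given in the sources used here, so reads of the shared bases cannot be assigned, and both were lower too, TCP1, a chaperonin subunit, with 105 in siNT and 71.0 in siPAX9 (-0.56) and the SOD2 row, far more abundant than ACAT2, with 2209 and 1602 (-0.46). The ACAT2 value is therefore uncertain.

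HMGCS1 makes HMG-CoA, a precursor of mevalonate. It was the only higher gene of the 7, with 24.5 FPKM in siNT and 25.9 in siPAX9 (0.08). The kinases that phosphorylate mevalonate in turn were both lower, MVK with 17.7 in siNT and 13.7 in siPAX9 (-0.37) and PMVK with 40.7 and 32.8 (-0.31). MVD, which decarboxylates the product to isopentenyl diphosphate, had 22.7 in siNT and 21.1 in siPAX9 (-0.11, above 0 after rescaling to the same total). IDI1, the isomerase that follows, had 39.7 and 39.1 (-0.02, above 0 under the 3 scalings). FDPS, which condenses these units to farnesyl diphosphate, shares its row with the neighbouring gene RUSC1, and the row had 159 in siNT and 131 in siPAX9 (-0.28). The single value of that row cannot be divided between FDPS and RUSC1.

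FDFT1 and SQLE open the part of the pathway that makes only sterols. FDFT1, squalene synthase, had 113 FPKM in siNT and 79.4 in siPAX9 (-0.51), and SQLE, the monooxygenase that oxidises squalene, had 75.9 and 64.5 (-0.23). Of the 11 genes from FDFT1 to DHCR7, 9 were lower, with MSMO1 and NSDHL flipping under the other scalings. Of all named genes, 55.3% were lower, as were 61.3% of those with a mean FPKM of at least 10. The median log2 ratio of the 11 was -0.33, or -0.14 after rescaling to the same total. Without the 3 genes that share a row or exons it was -0.13, near the -0.13 of genes with a mean of at least 10. The sum of the 11 was 635 in siNT and 524.5 in siPAX9. No gene of the 11 reached a 1.5-fold difference.

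LSS closes the ring to form lanosterol and had 32.4 in siNT and 34.8 in siPAX9 (0.10). The next enzymes remove methyl groups and reduce the sterol nucleus of lanosterol. CYP51A1, the lanosterol demethylase, had 85.5 in siNT and 61.6 in siPAX9 (-0.47). In the GENCODE annotation it shares 68.2% of its exonic length with a protein-coding model without a symbol on the same strand, as EBP does for 36.4%, so both values are uncertain to that extent. TM7SF2, a sterol reductase, shares its row with VPS51, and the row had 34.2 in siNT and 23.0 in siPAX9 (-0.58), so the share of either gene is not known. MSMO1 and NSDHL act one after the other on the methyl groups that remain, and both were nearly equal between the groups. MSMO1 had 120.2 in siNT and 119.9 in siPAX9 (-0.0040), and NSDHL had 17.8 and 17.6 (-0.02), both above 0 under the 3 scalings. HSD17B7, the keto-reductase of the same reaction series, had 12.7 and 9.81 (-0.37). Its pseudogene HSD17B7P2, with 2.59 in siNT and 2.36 in siPAX9, resembles it in sequence, so reads may be split between them.

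The last steps shift, add and reduce double bonds until cholesterol is reached. EBP, the sterol isomerase, had 72.3 in siNT and 53.2 in siPAX9 (-0.44), and DHCR7, which reduces the final precursor in one branch of the route, had 58.8 and 46.7 (-0.33). SC5D, the desaturase between them, went the other way with 12.4 in siNT and 14.1 in siPAX9 (0.19). LSS, MSMO1, NSDHL and SC5D were thus near or above 0, and the other genes from FDFT1 to DHCR7 were lower. Of these lower genes, SQLE, HSD17B7 and DHCR7 lay above -0.41, the lower quartile of all named genes, and FDFT1 (-0.51) lay below it. CYP51A1, EBP and the TM7SF2 row are uncertain as stated above. Without CYP51A1, EBP and TM7SF2 the sterol median (-0.13) was near that of genes with a mean FPKM of at least 10 (-0.13). A lower level of the sterol steps as a whole is therefore not a result here.

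**Figure D3:**
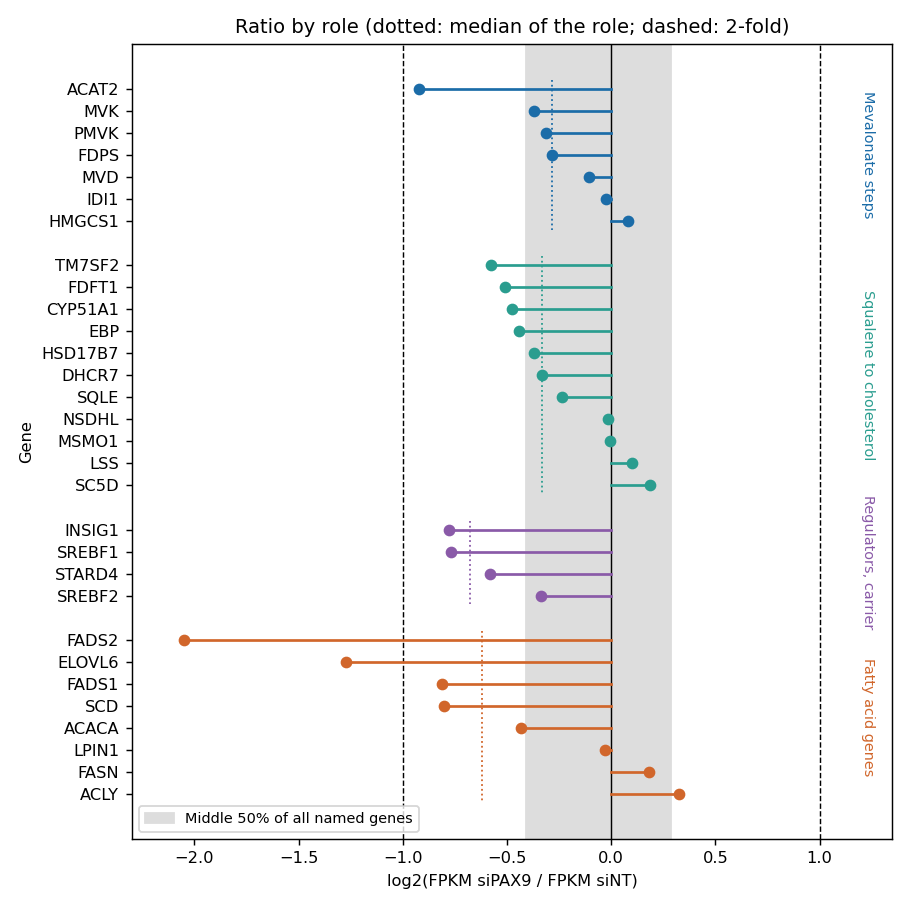
Log2 ratio of FPKM in siPAX9 over siNT for each gene, by role, with the median of each role dotted, 2-fold dashed, and the middle 50% of all named genes in grey. FADS2, ELOVL6 and ACAT2 lie farthest below 0, while ACLY, at 0.33, has the highest ratio.

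Regulators of the pathway were all lower in siPAX9 as deposited and under each scaling (4 of 4). As deposited, 55.3% of all named genes and 61.3% of those with a mean FPKM of at least 10 were lower. The 4 had a median log2 ratio of -0.68 (-0.48 after rescaling to the same total, and -0.58 without SREBF1, which shares exons). INSIG1, itself a target gene of the SREBPs and a brake on them, had 34.7 FPKM in siNT and 20.3 in siPAX9 (-0.78), and its row spans chr7:155089486-155101945 on hg19. SREBF1 had 46.2 in siNT and 27.1 in siPAX9 (-0.77), and its row spans chr17:17584787-17740325, the same span as the row of RAI1. SREBF1 shares 556 of its 8234 exonic bases with RAI1 on the opposite strand. SREBF2, whose product mainly drives the cholesterol genes, had 69.8 and 55.2 (-0.34), so the level of SREBF1 differed more between the groups than that of SREBF2. STARD4, which carries cholesterol between membranes, had 15.9 and 10.7 (-0.58).

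Promoters of the INSIG1 and SREBF2 genes are shown with matches of the letters given below marked. They are the 250 bases before the start in RefSeq on GRCh38.p14, written 5′ to 3′ on the gene's strand. The INSIG1 stretch is chr7:155297628-155297877 on the plus strand, and the SREBF2 stretch is chr22:41832855-41833104 on the plus strand. Capitals mark exact matches on either strand of TCACNCCAC (the core of a sterol regulatory element), CACGTG (E-box), CCAAT (NF-Y box) and GGGCGG (GC box).
INSIG1: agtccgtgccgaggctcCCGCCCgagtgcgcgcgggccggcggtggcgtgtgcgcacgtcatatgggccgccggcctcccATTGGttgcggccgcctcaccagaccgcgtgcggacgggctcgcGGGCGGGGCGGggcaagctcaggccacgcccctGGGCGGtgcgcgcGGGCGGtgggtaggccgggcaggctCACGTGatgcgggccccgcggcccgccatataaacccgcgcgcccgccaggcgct
SREBF2: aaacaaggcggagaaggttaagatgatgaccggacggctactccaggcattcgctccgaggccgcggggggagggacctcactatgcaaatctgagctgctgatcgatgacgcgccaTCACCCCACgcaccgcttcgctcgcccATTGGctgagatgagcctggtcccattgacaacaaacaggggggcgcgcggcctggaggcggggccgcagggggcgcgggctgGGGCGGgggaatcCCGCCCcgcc
INSIG1 held 0 sterol regulatory element cores, 1 E-box, 1 NF-Y box and 5 GC boxes in this stretch, a pair of the GC boxes overlapping by 1 base. SREBF2 held 1 sterol regulatory element core, 1 NF-Y box and 2 GC boxes. A match is a description of letters and not evidence of a bound site.

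INSIG2, a paralog of INSIG1 singled out after its values were seen, was higher rather than lower, with 6.77 in siNT and 8.16 in siPAX9 (0.27). INSIG1 thus made up 83.7% of the summed INSIG FPKM in siNT and 71.3% in siPAX9. Among 14 sterol sensing, uptake and trafficking genes with a mean FPKM of at least 1, of 16 listed, 10 were lower and 4 higher. Of all named genes, 55.3% were lower. Of the 14, 3 were at least 2-fold lower (beside 6.90% of all named genes) and 0 at least 2-fold higher, with a median of -0.33. The 3 were MBTPS2, a protease that releases active SREBP (9.36 in siNT, 4.33 in siPAX9, -1.11), LRP8, a lipoprotein receptor (10.2 and 4.69, -1.12), and GRAMD1A, a sterol transporter (23.1 and 10.6, -1.13). All 3 fell short of 2-fold after rescaling to the same total, and MBTPS2 (-0.96) and LRP8 (-0.98) also with 1 added to each FPKM. As deposited, each of the 3 was lower than every cholesterol synthesis gene among the members in log2 ratio.

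Fatty acid genes did not share a direction. ACLY and FASN were higher as deposited, and ACACA, SCD, ELOVL6, FADS1 and FADS2 were lower as deposited and under each scaling. Of the 8 genes, 6 were lower, with LPIN1 flipping under the other scalings, and 2 were higher. Of all named genes, 55.3% were lower, as were 61.3% of those with a mean FPKM of at least 10. The median log2 ratio of the 8 was -0.62 (-0.42 after rescaling to the same total, and -0.23 without FADS1 and FADS2, which share exons). The sum of the 8 was 566 in siNT and 426 in siPAX9.

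ACLY, which makes cytosolic acetyl-CoA from citrate, had 57.7 in siNT and 72.4 in siPAX9 (0.33), the highest ratio of all 30 genes. ACACA, which makes malonyl-CoA, had 30.0 in siNT and 22.2 in siPAX9 (-0.43), and FASN, the synthase that makes palmitate, had 107 and 121 (0.18). ACSS2, which makes acetyl-CoA from acetate and was singled out after its values were seen, went against ACLY with 35.9 in siNT and 18.2 in siPAX9 (-0.98). The summed FPKM of ACLY and ACSS2 was nearly equal, 93.7 in siNT and 90.6 in siPAX9, while the share of ACLY in it was 61.6% in siNT and 80.0% in siPAX9.

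Products of SCD and ELOVL6 act on saturated chains, such as the palmitate that FASN makes. SCD, which puts the first double bond into saturated chains, was the most abundant of the 30 genes, with 237 FPKM in siNT and 136 in siPAX9 (-0.80) at chr10:102106772-102124588. ELOVL6, which lengthens palmitate, had 49.7 in siNT and 20.6 in siPAX9 (-1.27) at chr4:110967046-111119820. Of all named genes, 4.24% had a lower ratio than ELOVL6.

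FADS1 and FADS2 desaturate polyunsaturated chains and lie next to each other in opposite directions in a row span of chr11:61567097-61634826. FADS2 had 30.2 in siNT and 7.30 in siPAX9 (-2.05), the lowest ratio of the 30 genes, below which lay 1.49% of all named genes. FADS1 had 16.1 and 9.20 (-0.81). Their annotations share 490 exonic bases on opposite strands, 4.79% of the exonic length of FADS1 and 4.64% of that of FADS2, so a part of the reads cannot be assigned without strand. FADS2 also shares 49 exonic bases with FEN1 on the same strand. LPIN1, the phosphatidate phosphatase that feeds chains into glycerolipids, had 38.3 and 37.6 (-0.03, above 0 under the 3 scalings).

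Sequence before the start is shown for ELOVL6 and SCD, lower in siPAX9, and for ACLY, higher in siPAX9, with the same capitals and the same source and build. ELOVL6 is chr4:110198616-110198865 on the minus strand, SCD is chr10:100346983-100347232 on the plus strand, and ACLY is chr17:41919023-41919272 on the minus strand.
ELOVL6: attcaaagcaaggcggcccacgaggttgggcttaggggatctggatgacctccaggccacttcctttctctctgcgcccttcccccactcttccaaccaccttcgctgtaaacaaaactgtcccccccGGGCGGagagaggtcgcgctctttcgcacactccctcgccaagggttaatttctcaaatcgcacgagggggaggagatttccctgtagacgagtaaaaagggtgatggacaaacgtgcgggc
SCD: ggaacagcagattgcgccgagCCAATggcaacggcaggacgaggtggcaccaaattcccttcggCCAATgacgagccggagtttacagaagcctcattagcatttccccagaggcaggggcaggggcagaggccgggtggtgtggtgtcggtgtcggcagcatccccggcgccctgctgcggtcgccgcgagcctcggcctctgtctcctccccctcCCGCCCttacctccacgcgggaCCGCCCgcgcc
ACLY: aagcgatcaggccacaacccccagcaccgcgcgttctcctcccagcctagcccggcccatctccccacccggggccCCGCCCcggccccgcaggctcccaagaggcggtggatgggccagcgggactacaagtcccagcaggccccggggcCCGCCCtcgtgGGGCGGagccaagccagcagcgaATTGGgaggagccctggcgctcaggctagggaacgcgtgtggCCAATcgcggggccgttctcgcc
SCD held 2 NF-Y boxes and 2 GC boxes, ACLY held 2 NF-Y boxes and 3 GC boxes, and ELOVL6 held 0 NF-Y boxes and 1 GC box. Whether these letters bear on the ratios was not tested.

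Across the members, 26 of 30 genes matched the promoter table, with 37 windows from 250 bases before to 50 bases after a start. ACAT2, FDFT1, SQLE and FASN had no entry. The NF-Y box letters were in at least 1 window of 20 of the 26 genes (76.9%), beside 39.7% of all 27305 genes of the table and 43.2% of its 5207 genes with a mean FPKM of at least 10. The GC box letters were in 25 of 26 (96.2%), beside 48.3% and 78.8%. The E-box was in LSS, SC5D and INSIG1 (11.5%), beside 8.77% and 13.5%, and the sterol regulatory element core was in SREBF2 alone (3.85%), beside 1.39% and 1.46%. Of all 35116 windows, 34.6% held the NF-Y box, 45.0% the GC box, 7.26% the E-box and 1.13% the sterol regulatory element core. Of the known PAX9 sequences only GCGTGACCA and GCGGAACGG were searched. These, sought on both strands, were in 0 of the 37 windows, beside 0.157% and 0.225% of all windows, which says only that these letters are not in these windows. Other PAX9 sequences and bases farther from the start were not searched.

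Paralogs of the desaturase and elongase genes differed in direction. SCD5, a second stearoyl-CoA desaturase, had 10.00 FPKM in siNT and 43.4 in siPAX9 (2.12), at least 2-fold higher, and SCD made up 95.9% of the summed SCD and SCD5 FPKM in siNT and 75.8% in siPAX9. FADS3, next to FADS2 on chromosome 11 and singled out after its values were seen, had 24.6 in siNT and 44.9 in siPAX9 (0.87). In siNT FADS2 had the highest FPKM of the 3 FADS genes, and in siPAX9 FADS3 did, with 73.1% of their sum against 34.6% in siNT.

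Of the elongases, ELOVL5, which acts on polyunsaturated chains, had 56.7 in siNT and 57.9 in siPAX9 (0.03). ELOVL1 (45.4 and 55.7, 0.29) and ELOVL4 (3.83 and 5.35, 0.48) were higher, and ELOVL7 (4.26 and 3.01, -0.50) was lower. ELOVL6 made up 31.1% of the summed FPKM of the 7 ELOVL genes in siNT and 14.4% in siPAX9, while that sum was 159.9 and 143, a log2 ratio of -0.16 that is above 0 only after rescaling to the same total. HACD2, a dehydratase of the same elongation cycle, had 45.9 in siNT and 70.2 in siPAX9 (0.61). Of the 5 elongation genes outside the ELOVL family, HACD2, HSD17B12 and TECR were higher and HACD1 (-0.45) and HACD3 (-0.29) lower, and together they summed to 145 in siNT and 188 in siPAX9.

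**Figure D4:**
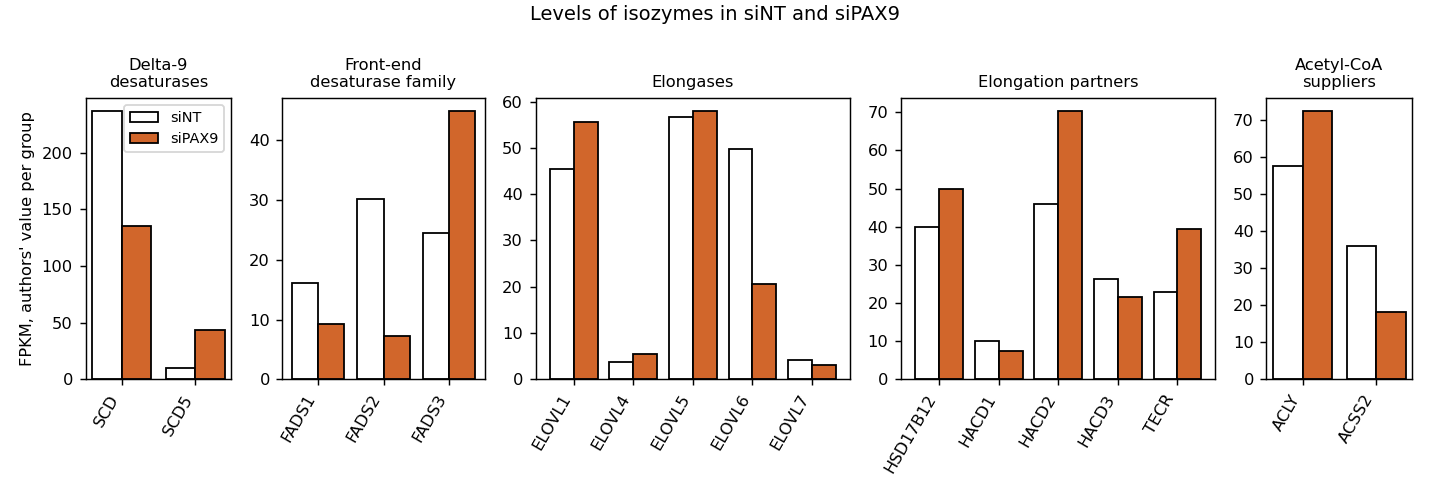
FPKM of desaturases, elongases, their partner enzymes and acetyl-CoA suppliers in siNT (open bars) and siPAX9 (filled bars), 1 authors' value per group with no error, each panel with its own axis from 0. SCD, FADS1, FADS2 and ELOVL6 are lower in siPAX9, and SCD5, FADS3, HACD2 and TECR are higher.

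Neighbours of FADS1 and FADS2 on the other side were also looked up after the FADS values were seen. TMEM258, at chr11:61556602-61560085, had 124 in siNT and 65.7 in siPAX9 (-0.91), and FEN1, a flap endonuclease of DNA replication at chr11:61560109-61564714, had 15.8 and 8.14 (-0.96). The order along the chromosome was thus TMEM258, FEN1, FADS1 and FADS2, all lower as deposited and under each scaling, followed by FADS3, which was higher.

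Other lipid pathways were listed to set the members in their surroundings. Of all named genes, 55.3% were lower in siPAX9. Of 16 other fatty acid synthesis genes with a mean FPKM of at least 1, 8 were lower and 8 higher, with 0 at least 2-fold lower, 1 (SCD5) at least 2-fold higher, and a median of -0.09. Of 11 isoprenoid branch genes, which use farnesyl diphosphate for other ends, 7 were lower and 4 higher, 0 past 2-fold, with a median of -0.28; FNTA, a prenyltransferase subunit, had 57.4 in siNT and 43.7 in siPAX9 (-0.39). The other subunit, FNTB, shares its row with CHURC1 and had 31.6 and 33.2 (0.07).

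Sterol efflux and esterification genes had a median near 0 (-0.0017) over 5 genes, with 1 at least 2-fold lower. This was NR1H3, the sterol-activated receptor LXR alpha and an activator of SREBF1, with 7.27 in siNT and 1.78 in siPAX9 (-2.03). Its paralog NR1H2 had 23.0 and 25.8 (0.16), and LPCAT3, which puts polyunsaturated chains into phospholipids, had 14.84 and 14.82. With 1 added to each FPKM the ratio of NR1H3 was -1.57.

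Acyl-CoA synthetase, glycerolipid and lipid droplet genes had a median of -0.06 over 17 genes, with 0 past 2-fold in either direction. ACSL1, the most abundant, had 212 in siNT and 204 in siPAX9, and ACSL4 had 112 and 100.4. The medians of the other fatty acid synthesis genes, the sterol efflux genes and the lipid droplet genes, between -0.09 and -0.0017, lie above 0 after upper quartile scaling and after rescaling to the same total. Fatty acid oxidation genes had a median of 0.17 over 19 genes, 12 of them higher and 7 lower, with 1 (HADH) at least 2-fold lower as deposited but short of 2-fold under each scaling and with 1 added to each FPKM. HADHB, a subunit of the mitochondrial trifunctional protein, had 74.5 in siNT and 107 in siPAX9 (0.52), ACADVL, a dehydrogenase of long chains, had 73.3 and 92.8 (0.34), and HADH, which acts on shorter chains, had 35.1 and 17.2 (-1.03). The median of the oxidation genes was thus above 0 and that of the members below 0.

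Epidermal barrier lipid genes were split as deposited, with 5 higher and 4 lower, 3 at least 2-fold higher and 0 at least 2-fold lower, and a median of 0.62 over 9 genes. Of the lower genes, SPTLC1 (-0.07), SPTLC2 (-0.11) and ALOXE3 (-0.14) lie above 0 after rescaling to the same total, and UGCG does not. Without SULT2B1, which passed the minimum only through siPAX9 and so had to have a high ratio, 4 of 8 were higher and 4 lower, 2 were at least 2-fold higher (beside 6.82% of all named genes), and the median was 0.27. ABCA12, which loads lipids into lamellar granules, had 10.5 in siNT and 46.4 in siPAX9 (2.14). SMPD1, a sphingomyelinase, had 3.35 and 6.81 (1.03, and 0.85 with 1 added). UGCG, which makes glucosylceramide, was lower with 20.2 and 16.6 (-0.28). SULT2B1, which makes cholesterol sulfate, had 0.0136 and 3.63, a log2 ratio of 8.06 that was 2.19 with 1 added to each FPKM.

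**Figure D5:**
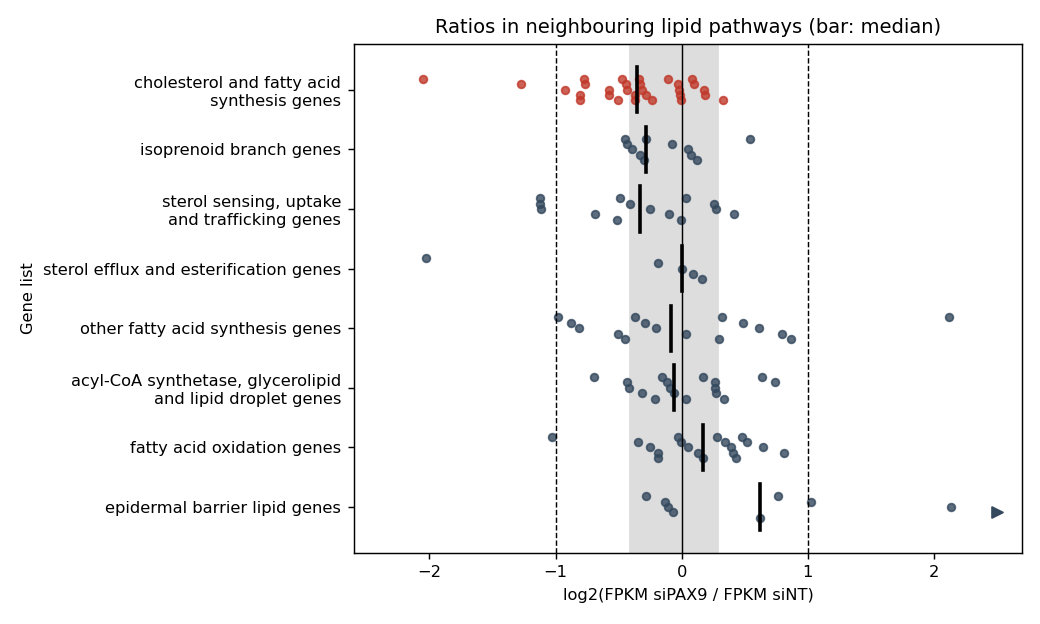
Log2 ratios of FPKM in siPAX9 over siNT for the members (red) and for genes of other lipid pathways with a mean FPKM of at least 1 (blue), with list medians as bars, 2-fold dashed and the middle 50% of all named genes in grey. The members' median is -0.35. The bar of the barrier lipid genes, at 0.62, includes SULT2B1 and is 0.27 without it; the triangle marks SULT2B1, at 8.06 beyond the axis.

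Cell type markers were read beside these values. All 10 epithelial markers had a mean FPKM of at least 1, 6 of them higher and 4 lower as deposited (LAMB3 is above 0 after rescaling to the same total), with a sum of 4418 in siNT and 5785 in siPAX9, and KRT17 was the most abundant with 1718 and 2088. Among them KRT6A (368 in siNT, 959 in siPAX9) and CDH1 (45.3 and 124) were at least 2-fold higher, and EPCAM (34.3 and 16.7) was at least 2-fold lower as deposited but not under the other scalings. The sums of the liver markers (0.0469 in siNT, 0.0466 in siPAX9, TTR listed at 0, ALB the most abundant), adipocyte markers (0.152 and 0.844, LEP listed at 0, PLIN1 the most abundant) and blood markers (0.0372 and 0.139, HBB and CD3E listed at 0, PTPRC the most abundant) were below 1. The 4 fibroblast markers summed to 6.32 in siNT and 42.1 in siPAX9, led by DCN (5.85 and 37.9), with COL1A1 at 0.454 and 4.13, COL1A2 listed at 0 in siNT, and LUM near 0. The 3 endothelial markers summed to 2.58 and 0.516, nearly all from PECAM1 (2.58 in siNT, 0.495 in siPAX9), with CDH5 listed at 0 in siNT and VWF near 0. The part of these differences in the lipid gene values was not tested.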

How the data were processed

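Libraries of poly(A)+ RNA were read from a single end, and in Partek Flow the authors placed the reads on UCSC hg19 with Bowtie 2 and estimated FPKM with Cufflinks. The deposited table has 41656 rows, each with the authors' FPKM of siNT and of siPAX9, combined over the samples of the group. Its columns of fold change, test statistic, p-value, q-value and call come from the authors' own comparison and were not used. Columns of single samples numbered 0. The gene column was split at commas, and the row with the highest mean FPKM was kept for each symbol. Log2 ratios had no pseudocount. Differences were named at 2-fold with a mean FPKM of at least 1; 119 of the 13264 named genes were at 0 in 1 group and count as past 2-fold.

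From each pathway list up to 4 genes past 2-fold were named, or, where fewer than 2 passed, up to 2 of the most abundant as well, and single genes of the other direction, such as UGCG, were added after their values were seen. The list of other sterol synthesis genes is not reported here. The members and lists were chosen with earlier results of these data known. Exon overlaps came from GENCODE on GRCh37 and promoters from RefSeq on GRCh38.p14. Python 3.11.15, numpy 2.4.6, pandas 2.3.3 and matplotlib 3.10.9 were used, and the row choice, ratios and counts were tested on simulated data.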

Additional observations from a re-analysis of the deposited data

How the results depend on the processing

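No paired analysis was possible because the table holds 1 combined value per group, and leaving out a replicate was not possible for the same reason. The members' median stayed below 0 under every alternative tried. Rescaling to the same total FPKM gave medians of -0.16 for all members, -0.089 for the mevalonate genes, -0.14 for the sterol genes, -0.42 for the fatty acid genes and -0.48 for the regulators. By its construction this adds 0.19 to each ratio, and the 10 highest rows, most without a symbol, hold 18.2% of the total in siNT and 26.4% in siPAX9. The count of members lower in siPAX9 was 7 at 1.5-fold and 1 at 4-fold instead of 2. Without ACAT2, FADS1, FADS2, FDPS and TM7SF2, 5 of the 9 members that share a row or exons with another gene (an alternative chosen after seeing the data), 1 member was at least 2-fold lower, the fatty acid median was -0.23 and the mevalonate median -0.11, since the genes left out include the lowest ratios. Without all 9, which adds MVK, CYP51A1, EBP and SREBF1 (also chosen after seeing the data), 1 member was at least 2-fold lower, and the medians were -0.23 for all members, -0.065 for the mevalonate genes, -0.13 for the sterol genes and -0.23 for the fatty acid genes. Adding 1 or 0.1 to each FPKM, centring on the median, upper quartile scaling, no filter, a mean FPKM of at least 10, summed rows and rows with a single symbol moved none of these medians by 0.1 and left the count of members at least 2-fold lower at 2. The split of lower and higher members did move, from 25 and 5 to 21 and 9 after centring and upper quartile scaling and 20 and 10 after rescaling to the same total. The number of members at least 2-fold higher was 0 in each. The table gives no read counts, so the precision of a single ratio cannot be given.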
